A study of Mus musculus with 6 samples.

Results

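The 10 genes described here are products and regulators of the fat cell: the adipokines Adipoq, Lep, Retn and Cfd, the lipid handling genes Fabp4, Lpl, Plin1 and Cidec, and the lipogenic regulators Thrsp and Pparg. They were taken by gene symbol from a table of 23518 genes, which held all 10. Total RNA came from ear skin of mice and gave 3 wild-type (WT) and 3 HdR libraries, and both genotypes had received imiquimod, a Toll-like receptor agonist that inflames skin, as 10 mg of a 5% cream, with sampling on day 1. HdR is the short name used in the data for HOIL1 ΔRING1, a form of HOIL1 named for the loss of its RING1 domain. The labels do not say whether the deletion is in all cells or which promoter drives it, nor that the libraries of a genotype are separate animals, so every p-value here measures only the spread between these samples, which may be technical. HOIL1 is encoded by Rbck1 and is a subunit of the linear ubiquitin ligase complex. Untreated skin is not analysed here, and strain, age and sex are not given in the labels. Ear skin holds epidermis, dermis, cartilage, muscle and fat together, so a difference in a fat cell transcript can come from the number of fat cells in the piece or from RNA per cell, and bulk values cannot tell these apart.

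White fat cells of the dermis store triglyceride in a lipid droplet and secrete hormones. PPARγ, the product of Pparg, is the nuclear receptor that drives their formation, together with C/EBP factors. Lipoprotein lipase frees fatty acids outside the cell, FABP4 carries them inside it, and perilipin 1 and CIDEC coat and enlarge the droplet. Dermal fat is a separate layer in mouse skin that expands with the hair growth cycle and that has been linked to host defence.

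In the HdR libraries 8 of the 10 genes were higher than in WT and 0 were lower by limma (robust trend fit, Benjamini-Hochberg adjusted p under 0.05). The same test called 12.7% of all 15049 genes tested higher, 17.9% lower and 30.6% in either direction. All 10 genes passed the filter on low values. Fabp4, Adipoq, Retn, Thrsp, Lep, Cfd, Cidec and Lpl rose, from 1.42-fold for Lpl to 5.10-fold for Thrsp as ratios of means, and in each of these 8 the 3 HdR values lay above the 3 WT values, as they did in 20.9% of all genes tested (the reverse held in 30.7%). Plin1 and Pparg did not pass, and their genotypes overlapped. The median change of the 10 was 1.46 on the log2 scale, beside -0.13 for all genes tested. Levels below are normalised coverage in aligned bases per Mb of scaled library (mean ± SD, n = 3 per genotype), and a change is HdR minus WT in log2(level + 1), a scale on which low genes change less than their ratio. Positions below are on GRCm38, for the whole gene in GENCODE M21.

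**Figure D1:**
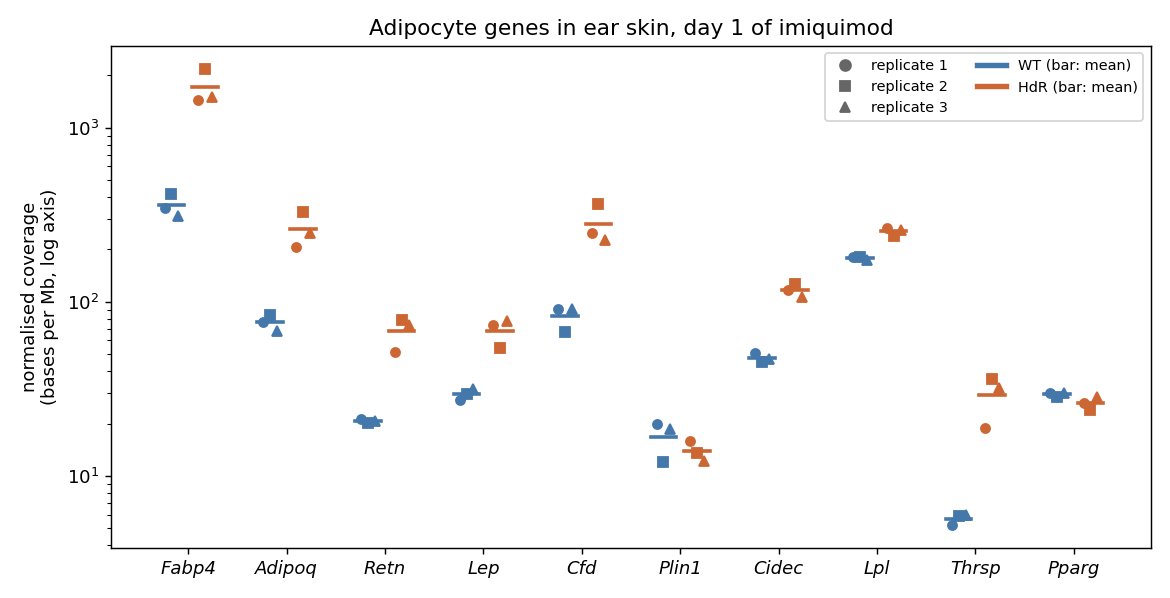
Normalised coverage (bases per Mb, log axis) of the 10 adipocyte genes in each of the 6 libraries, WT in blue and HdR in orange, with a bar at each mean and a marker shape for each replicate. Fabp4 runs from 311 to 419 in WT and from 1438 to 2184 in HdR, while the points of Plin1 and Pparg overlap between genotypes.

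The promoters of 8 of the 10 genes are held in RefSeq sequence for GRCm38.p6, with Fabp4 and Lpl not among them. 4 of them are shown because Adipoq, Thrsp and Lep rose together and Plin1, a gene of the same cell, did not. Each runs from 250 bases before to 50 bases after a start site, 5′ to 3′ on the gene's strand. Adipoq lies at chr16:23146286-23146585 (plus strand), Thrsp at chr7:97417501-97417800 (minus), Lep at chr6:29059971-29060270 (plus) and Plin1 at chr7:79732727-79733026 (minus). Capitals mark matches, on either strand, to the CCAAT box (CCAAT), to the TATA box (TATAAA), to the core element of nuclear receptors (AGGTCA) and to a C/EBP element (TTGCNNAA).
Adipoq: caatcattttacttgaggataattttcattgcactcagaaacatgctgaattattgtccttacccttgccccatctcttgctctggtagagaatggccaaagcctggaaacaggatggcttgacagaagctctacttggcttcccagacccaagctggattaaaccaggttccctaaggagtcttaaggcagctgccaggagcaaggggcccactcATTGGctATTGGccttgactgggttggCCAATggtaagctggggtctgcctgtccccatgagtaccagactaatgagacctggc
Thrsp: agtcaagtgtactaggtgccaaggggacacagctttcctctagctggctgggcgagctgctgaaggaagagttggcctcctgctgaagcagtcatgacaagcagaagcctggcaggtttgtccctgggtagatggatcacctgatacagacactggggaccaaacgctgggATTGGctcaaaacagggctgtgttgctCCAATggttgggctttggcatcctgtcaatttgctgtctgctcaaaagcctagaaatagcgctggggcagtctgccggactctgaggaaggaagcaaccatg
Lep: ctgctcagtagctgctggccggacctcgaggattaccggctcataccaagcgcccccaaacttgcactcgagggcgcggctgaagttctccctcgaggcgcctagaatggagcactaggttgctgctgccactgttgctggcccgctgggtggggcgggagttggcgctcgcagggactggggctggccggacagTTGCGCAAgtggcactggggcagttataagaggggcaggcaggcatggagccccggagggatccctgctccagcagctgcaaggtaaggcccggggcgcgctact
Plin1: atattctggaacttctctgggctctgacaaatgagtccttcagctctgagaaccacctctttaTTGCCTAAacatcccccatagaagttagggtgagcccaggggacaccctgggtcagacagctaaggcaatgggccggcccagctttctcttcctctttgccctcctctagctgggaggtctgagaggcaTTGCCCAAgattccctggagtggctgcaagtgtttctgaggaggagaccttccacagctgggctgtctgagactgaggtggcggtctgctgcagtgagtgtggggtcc

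CCAAT occurred 3 times in the Adipoq window and 2 times in that of Thrsp. It was found in 4 of the 11 promoters of these genes, among them promoters of Pparg, which did not pass. Of all 32851 promoters of this length 37.4% held it. The Lep window held the palindrome TTGCGCAA from position -55 to -48, and the Plin1 window held TTGCCTAA and TTGCCCAA. TTGCNNAA was found in 4 of the 11 promoters of these genes and in 10.8% of all promoters. The motif is thus present both in genes that rose (Lep and Cidec) and in genes that did not pass (Plin1 and Pparg). The windows of Retn and Cfd held no match. A direct repeat of AGGTCA with 1 base between the copies, the classical PPAR element, which by its letters also counts under AGGTCA, was in 0 of the 11 promoters of these genes and in 13 of all promoters. AGGTCA alone occurred in 2 of the 3 Pparg promoters and in 16.3% of all promoters. These are matches of letters in short windows, not measured binding.

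The adipokines rose 2.32- to 3.42-fold. Adipoq (ENSMUSG00000022878.5, chromosome 16, 23146536 to 23158028, plus strand) encodes adiponectin, a hormone made almost only by fat cells that increases insulin sensitivity. Adiponectin mRNA stood at 76.2, 84.1 and 68.4 in WT replicates 1 to 3 and 206, 327 and 249.8 in HdR replicates 1 to 3. The lowest HdR library stood well above the highest WT library, a log2 change of 1.74 (SE 0.20, limma adjusted p = 0.00283).

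Lep (ENSMUSG00000059201.12, chromosome 6, 29060220 to 29073877, plus strand), the gene of the satiety hormone leptin, read 27.2, 29.5 and 31.5 in the WT samples against 73.5, 54.2 and 77.4 in the HdR samples. HdR replicate 2 was the lowest HdR library here, although it was the highest for Adipoq, and all 3 exceeded WT (1.18 in log2 units, limma adjusted p = 0.00700). Retn (ENSMUSG00000012705.16, chromosome 8, 3655770 to 3660110, plus strand) encodes resistin, a cysteine-rich hormone that in mice comes mainly from white fat. It was even in WT, at 21.2, 20.2 and 20.6, and stood at 51.4, 78.9 and 74.03 in HdR (1.65 in log2 units, limma adjusted p = 0.00283). Cfd (ENSMUSG00000061780.6, chromosome 10, 79890853 to 79892655, plus strand) encodes adipsin, the serine protease complement factor D of the alternative pathway. Its values were 91.4, 66.8 and 91.2 in the WT samples against 249, 366 and 226 in the HdR samples, without overlap (1.73 in log2 units, limma adjusted p = 0.00397).

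Paralogues of resistin, which lack its restriction to fat, were read beside it. Retnla, an alternatively activated macrophage product, went from 6.88 ± 0.786 to 25.7 ± 14.2 and rose (1.63 in log2 units, limma adjusted p = 0.0137), with HdR replicates at 41.5, 21.4 and 14.2. After removal of the length trend Retnla did not pass (0.98, limma adjusted p = 0.0825). Retnlg, a resistin-like gene of bone marrow and neutrophils, rose from 1.38 ± 0.679 to 14.3 ± 6.35 (2.62 in log2 units, limma adjusted p = 0.00460). Retnlb did not pass the filter on low values, with at most 0.248 in any library. Reads shared between these similar genes could be assigned either way by the counting, which is not given in the sources used here. Retnlg and Retnlb were chosen after their values were seen.

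Among the lipid handling genes Fabp4 showed the largest change. Its change and that of Thrsp were the largest of the 10, and which of these came first depended on the setting: Thrsp exceeded Fabp4 with quantile normalisation (2.28 and 1.75) and with the principal length trend removed (1.75 and 1.70). Fabp4 (ENSMUSG00000062515.3, chromosome 3, 10204088 to 10208576, minus strand) encodes a fatty acid carrier that is abundant in fat cells and is also made by capillary endothelium and macrophages. Fabp4 coverage reached 345, 419 and 311 in the WT samples against 1438, 2184 and 1502 in the HdR samples, a 4.77-fold ratio of means (log2 change 2.23, SE 0.23, limma adjusted p = 0.00202). Fabp4 alone took 38.96% to 46.9% of the bases of the 10 genes in WT libraries and 58.4% to 63.3% in HdR libraries. Fabp4 thus weighs most in the summed level of the 10 genes, which ran from 799 to 893 in WT and from 2460.1 to 3450.1 in HdR.

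The other fatty acid binding proteins tested changed less than Fabp4. Fabp5, the epidermal form and the neighbour of Fabp4 in a gene cluster, read 827, 906 and 672 in the WT samples against 1021, 1352 and 743 in the HdR samples, short of the threshold (0.34 in log2 units, limma adjusted p = 0.321). Fabp3, the form of muscle and heart, rose from 34.5 ± 9.73 to 65.8 ± 3.96 (0.95 in log2 units, limma adjusted p = 0.0165), and did not pass after removal of the length trend (0.38, limma adjusted p = 0.305). Fabp6 rose as well (0.82 in log2 units, limma adjusted p = 0.0206) and likewise did not pass without the length trend (0.12, limma adjusted p = 0.603). Fabp7 did not pass (0.34, limma adjusted p = 0.295).

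Lpl (ENSMUSG00000015568.16, chromosome 8, 68880491 to 68907448, plus strand), lipoprotein lipase, rose least of the 8. Its values were tight within each genotype, 181, 181 and 175 in the WT samples against 265, 239 and 260.4 in the HdR samples (0.51 in log2 units, limma adjusted p = 0.0337). The Lpl call was lost with scaling to total bases (0.19 in log2 units, limma adjusted p = 0.393), with quantile normalisation (0.31, limma adjusted p = 0.117) and in the fits that left out replicate 1 or 3 of WT or of HdR (limma adjusted p = 0.0761 to 0.139). Lpl is also expressed in muscle and macrophages.

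The droplet proteins went apart. Cidec (ENSMUSG00000030278.11, chromosome 6, 113424634 to 113435760, minus strand), which fuses small droplets into the single large droplet of white fat cells, read 50.9, 45.3 and 47.2 in the WT samples against 116, 126 and 107 in the HdR samples, and rose evenly (1.27 in log2 units, limma adjusted p = 0.00283). Plin1 (ENSMUSG00000030546.14, chromosome 7, 79720218 to 79732903, minus strand), the perilipin that gates lipolysis at the droplet surface, read 19.8, 11.98 and 18.6 in the WT samples against 15.9, 13.5 and 12.1 in the HdR samples. The Plin1 values overlapped and did not pass (log2 change -0.24, 95% interval -0.74 to 0.26, limma adjusted p = 0.413). The upper limit of this interval, a 1.19-fold rise, lies below the smallest change that the intervals of Cidec (1.91-fold) and Adipoq (2.45-fold) allow.

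Thrsp (ENSMUSG00000035686.8, chromosome 7, 97412938 to 97417730, minus strand), a nuclear protein induced by thyroid hormone and carbohydrate that promotes fatty acid synthesis, had the largest ratio of means and the lowest level in WT. It read 5.23, 5.85 and 5.99 in the WT samples against 18.9, 36.1 and 32.2 in the HdR samples (2.12 in log2 units, limma adjusted p = 0.00283). HdR replicate 1 was the lowest of its group and still above every WT library. Pparg (ENSMUSG00000000440.12, chromosome 6, 115360951 to 115490399, plus strand) read 30.02, 28.5 and 29.8 in the WT samples against 26.1, 24.1 and 28.6 in the HdR samples, 2 HdR libraries below the WT range and 1 within it. Pparg did not pass (log2 change -0.16, 95% interval -0.51 to 0.18, limma adjusted p = 0.423), and its interval allows at most a 1.13-fold rise. The gene model Gm44079 overlaps Pparg, and reads of the pair cannot be told apart without a stated strand. In skin Pparg is also expressed by sebocytes, the lipid-filled cells of the sebaceous gland.

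**Figure D2:**
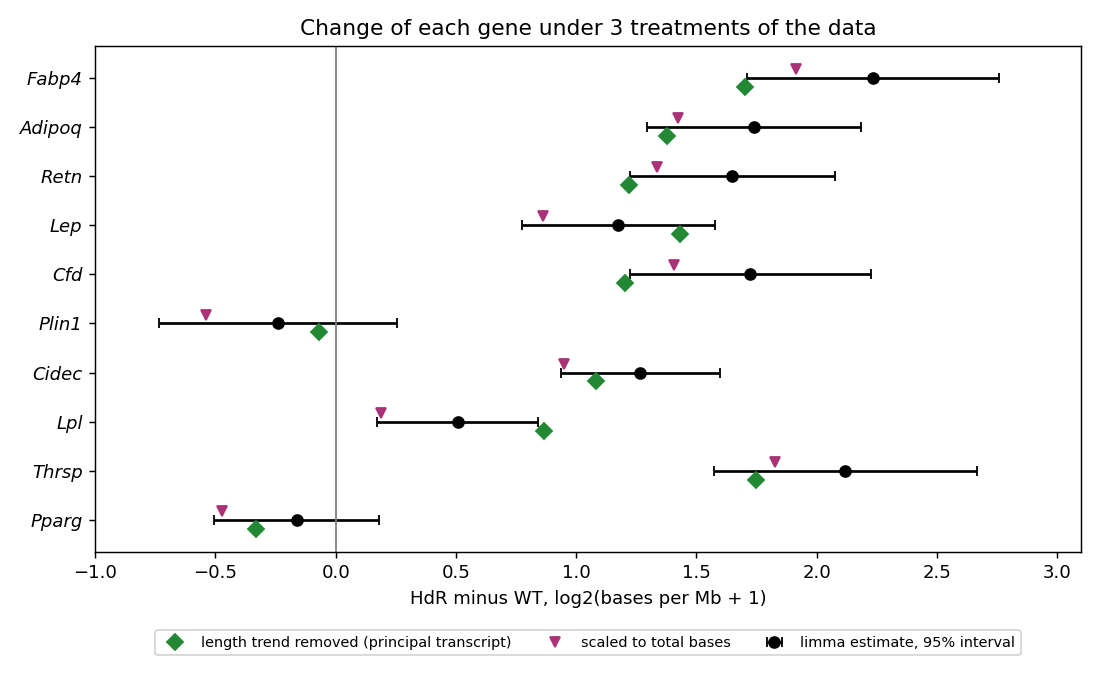
Change of each gene, HdR minus WT in log2(bases per Mb + 1): black points with 95% intervals from limma, green diamonds with the length trend of the principal transcript removed, purple triangles with scaling to total bases. The intervals of Plin1 and Pparg include 0, and the triangle of Lpl lies at 0.19.

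Libraries differed by depth and by a trend on transcript length. The deposited sums came to 4433 to 5966 Mb per library, equal to 14.8 to 19.9 M read pair equivalents, and the least covered gene of the 10 was Thrsp in WT (101 to 142 read pair equivalents) and Plin1 in HdR (158 to 259). Rbck1 itself was lower in every HdR library, at 23.9, 12.997 and 19.7 against 66.6, 55.1 and 64.1 in WT, and this value for the gene as a unit says nothing on the deleted exons. Short transcripts were higher and long ones lower in HdR: the median change was 0.68 in the shortest decile of principal transcripts (up to 1139 nt) and -0.59 in the longest (from 6300 nt). HdR replicate 2 had the fewest bases and the steepest slope on length, -0.28 per doubling, against -0.13 and -0.08 in the other HdR libraries and 0.04 to 0.25 in WT. Genotype and length trend cannot be told apart across these libraries.

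Of the 8 genes that rose, 5 have short transcripts. Principal transcripts, the main isoforms by the APPRIS tag of GENCODE, measure 896 nt for Fabp4, 922 for Cfd, 1139 for Retn, 1277 for Thrsp and 1292 for Adipoq. In the decile of Fabp4, Cfd and Retn, 52.3% of all tested genes were called higher, and in that of Adipoq and Thrsp 25.8%. Cidec and Pparg are alike in length (1720 and 1767 nt), in a decile with a median of 0.12, and lay at 1.27 and -0.16. Plin1 (2817 nt) and Lep (3259 nt) are neighbours in length and lay at -0.24 and 1.18. Lep and Lpl (4115 nt) rose in deciles where 5.57% and 3.49% of genes were called higher.

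With the trend on principal transcript length removed from each library, all 8 genes passed again and Plin1 and Pparg did not, while 10.2% of all genes were called higher and 7.93% lower. With the longest transcript in place of the principal one 8 genes passed as well (10.9% of all genes higher, 8.48% lower), and with the replicate number as a block 8 (18.3% and 27.2%). Without Lpl, 7 passed with scaling to total bases (6.1% and 28.6%) and with quantile normalisation (15.3% and 13.9%). Scaling moved the median change of all genes from -0.13 to -0.41 with total bases and -0.02 with quantiles. With the principal length trend removed, the change fell to 1.70 for Fabp4, 1.20 for Cfd, 1.22 for Retn and 1.38 for Adipoq. In the same fit it fell to 1.75 for Thrsp and 1.08 for Cidec, and grew to 1.43 for Lep and 0.87 for Lpl. The limma adjusted p of these 8 ran from 0.00138 to 0.0161. For Lpl the value with the trend removed is 1.71 times the value without. The choice of isoform matters for Fabp4: its longest annotated transcript, a retained intron of 4231 nt, would place it among long genes and give 2.55. Without HdR replicate 2 all 8 genes also passed, with changes of 2.04 for Fabp4, 1.56 for Adipoq and 1.33 for Lep. With both steps together 7 passed and Cfd did not (1.11 in log2 units, limma adjusted p = 0.0530).

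**Figure D3:**
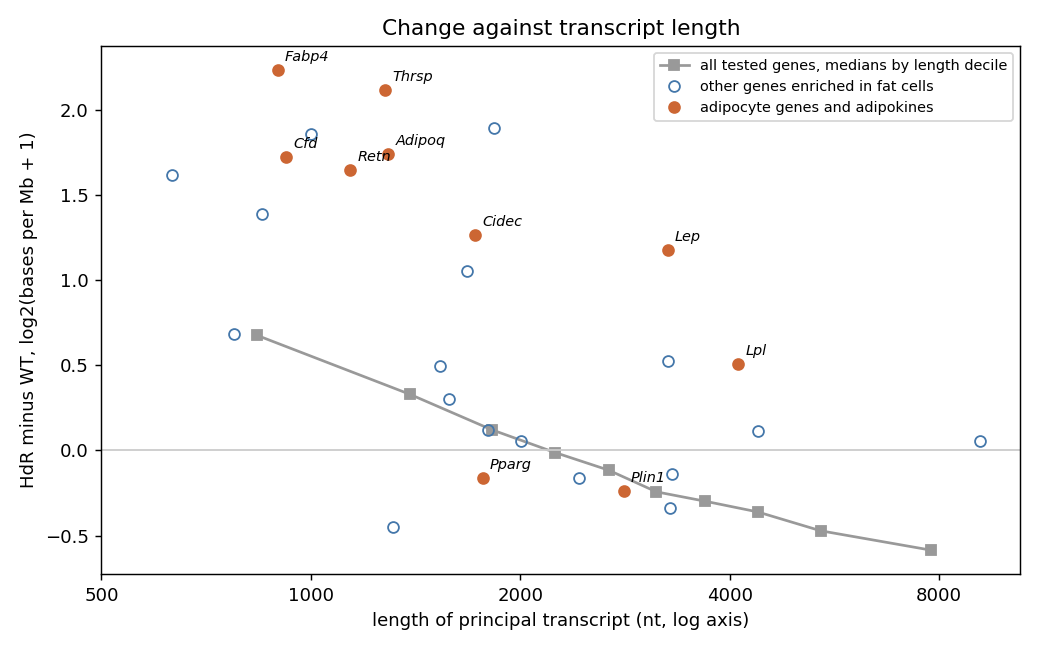
Change (HdR minus WT, log2(bases per Mb + 1)) against the length of the principal transcript (nt, log axis). Orange points are the 10 adipocyte genes, open blue circles 17 other genes enriched in fat cells, and grey squares the medians of all tested genes in 10 length deciles, from 0.68 to -0.59. Lep and Lpl lie above the grey line at lengths where it is below 0, and Plin1 lies close to it.

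Levels per length ranked the genes in much the same order in both genotypes. Per kb of principal transcript, WT skin held 400.01 ± 61.3 bases per Mb of Fabp4, then 90.2 of Cfd, 59.01 of Adipoq, 43.5 of Lpl and 27.8 of Cidec. Retn (18.2), Pparg (16.7), Lep (9.03), Plin1 (5.96) and Thrsp (4.46) followed, and of these neighbours only Plin1 and Thrsp overlapped between libraries. In HdR skin the 3 most covered genes per kb were Fabp4 (1906), Cfd (304) and Adipoq (202), with Cfd and Adipoq overlapping. Cidec (67.8), Lpl (61.97) and Retn (59.8) overlapped there, as did Thrsp (22.8) and Lep (20.98). Pparg (14.9) came next by its mean and overlapped Thrsp, and Plin1 (4.91) came last in every HdR library. By means Plin1 went from 9th to 10th place and Thrsp from 10th to 7th, places that the overlaps given here leave unresolved for Thrsp in both genotypes and for Plin1 in WT.

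Ratios to Adipoq within a library do not depend on scaling by a single factor per library. Quantile normalisation is not such a scaling and can change them. With it the changes were 1.75 for Fabp4, 1.75 for Retn and 1.61 for Adipoq. The ratios below were taken without it. The ratios of Retn and Cfd to Adipoq differed between genotypes by less than the spread between libraries. The log2 ratio of Retn was -1.88 ± 0.17 in WT and -1.94 ± 0.16 in HdR, and that of Cfd 0.11 ± 0.40 and 0.10 ± 0.22. The ratio of Plin1 to Adipoq was -1.94, -2.81 and -1.88 in WT and -3.70, -4.60 and -4.37 in HdR, a difference of -2.01 with no overlap. Pparg (-1.92) and Lpl (-1.24) were also lower relative to Adipoq in every HdR library. Fabp4 (0.48) and Thrsp (0.55) were higher relative to Adipoq in every HdR library. Lep (-0.55) and Cidec (-0.47) overlapped. Each of the 5 ratios without overlap had an exact two-sided permutation p of 0.1, the smallest that 3 against 3 libraries allow, and adjusted over the 9 ratios 0.18, so no ratio could pass. Ratios between genes of unlike length carry the length trend given above.

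**Figure D4:**
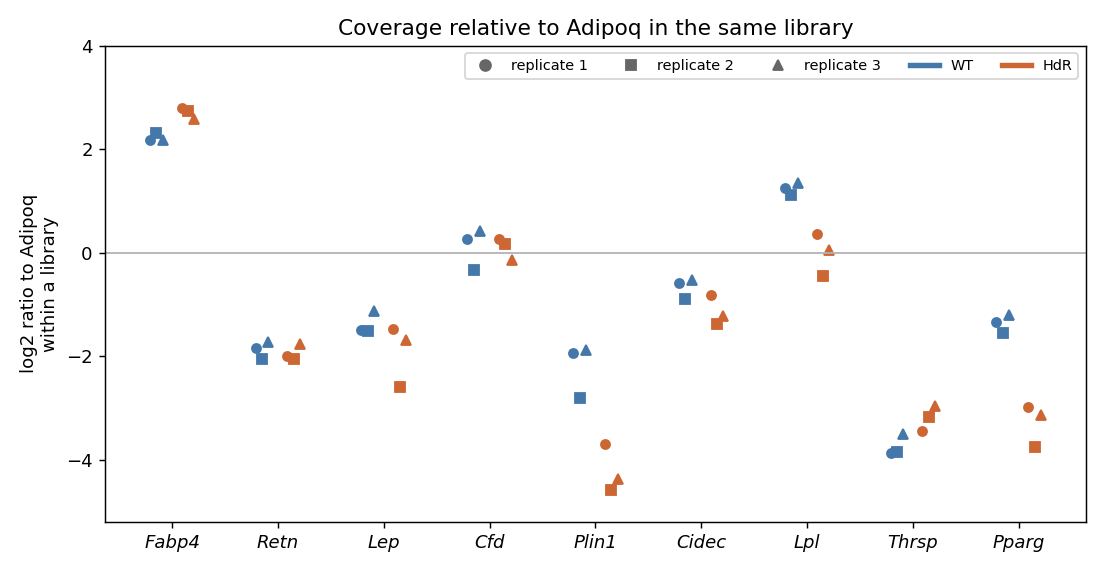
Log2 ratio of each gene to Adipoq in the same library, WT in blue and HdR in orange, with a marker shape for each replicate. The mean ratios of Plin1 and Pparg differ by -2.01 and -1.92 between HdR and WT, and Retn and Cfd overlap.

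Beside the counts by list here and below stand 12.7% of all genes tested higher and 17.9% lower. With the principal length trend removed these shares were 10.2% and 7.93%. Other genes enriched in fat cells also divided into those that rose and those that did not pass. Of 17 tested, 6 rose and 0 fell (median 0.30): Adig, a small adipogenesis protein (log2 change 1.61), Mrap, the partner of the melanocortin 2 receptor (1.86), Sncg, gamma-synuclein (1.39), Cyp2e1, a cytochrome P450 (1.89), Car3, carbonic anhydrase 3 of fat and muscle (1.05), and Orm1, an acute phase protein (0.68). Mrap stood at 2.22, 2.50 and 2.09 in the WT samples against 10.4, 12.1 and 9.99 in the HdR samples (limma adjusted p = 0.00161). The insulin-responsive trafficking gene Trarg1 (-0.14), the lactate receptor Hcar1 (-0.34), the amine oxidase Aoc3 (0.12) and the activin receptor Acvr1c (0.05) did not pass. The 6 that rose had a median principal transcript of 926 nt and the other 11 of 2429 nt, beside 1287 and 3130 nt over all genes tested. After removal of the length trend 6 were higher, among them Vstm2a in place of Orm1 (0.10, limma adjusted p = 0.723).

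Of 18 genes of the droplet and of lipolysis 5 rose and 1 fell (median 0.05; -0.27 with scaling to total bases and -0.06 with quantile normalisation). These shares, 27.8% and 5.56%, stand beside 12.7% and 17.9% of all genes tested. Scaled to total bases, 2 were higher and 3 lower, beside 6.1% and 28.6% of all genes. With each library left out in turn, 0 to 6 were higher and 0 to 4 lower. Hilpda, which is induced by hypoxia and inhibits lipolysis, went from 57.3 ± 9.03 to 109 ± 14.4 (limma adjusted p = 0.0125). G0s2, an inhibitor of adipose triglyceride lipase, went from 58.4 ± 8.72 to 157 ± 59.2 (limma adjusted p = 0.0154), and Plin5, the perilipin of oxidative tissue, from 3.33 ± 0.357 to 7.50 ± 1.60 (limma adjusted p = 0.0142). Cidea (0.46) and Fitm1 (0.67) also rose, and Mgll, monoglyceride lipase, fell by 0.67. The lipase genes Pnpla2 (-0.72) and Lipe (-0.59) and the perilipins Plin2 (-0.21), Plin3 (0.18) and Plin4 (-0.33) did not pass. After removal of the length trend 1 of the 18 was higher, Plin5 (0.88), and 0 were lower.

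Fatty acid and triglyceride synthesis, which Thrsp promotes, was read over 23 genes, of which 1 rose and 4 fell (median -0.37). The shares, 4.35% higher and 17.4% lower, stand beside 12.7% and 17.9% of all genes tested, so the share that fell was near that of all genes. The elongase Elovl6 fell from 616 ± 215 to 199 ± 99.7 (limma adjusted p = 0.0228), Insig1, a sterol sensor, from 91.5 ± 6.70 to 55.8 ± 10.6 (limma adjusted p = 0.0211), and Scd2 (-0.99) and Acaca (-0.92) also fell. The acyltransferase Agpat2 rose (0.68), and Fasn, fatty acid synthase, stood at 48.6 ± 16.2 and 44.7 ± 7.63 and did not pass (-0.07, limma adjusted p = 0.842). Keratinocytes and sebocytes express most of these enzymes too. With the length trend removed Elovl6 (-1.25) and Insig1 (-0.57) were lower and Me1 (0.53) higher.

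Of 12 genes of fatty acid uptake 2 rose and 1 fell (median -0.16; 0.03 without the length trend): Gpihbp1, the capillary anchor of lipoprotein lipase, from 4.65 ± 1.54 to 13.6 ± 5.83 (limma adjusted p = 0.0167), Fabp3 as given above, and the transporter Slc27a4, which fell by 1.18. After removal of the length trend Gpihbp1 (0.77) and Cd36 (0.61) were higher, Slc27a4 (-0.82) and Lmf1 (-0.70) lower, and Fabp3 did not pass. Of 17 transcription factors of fat cell formation 1 rose and 3 fell (median 0.01; -0.29 with scaling to total bases and -0.01 with quantile normalisation). These shares, 5.88% and 17.6%, stand beside 12.7% and 17.9% of all genes tested. Cebpd, an early C/EBP factor that is also an acute phase gene, read 53.1, 45.5 and 32.5 in the WT samples against 128, 281 and 169 in the HdR samples (2.06 in log2 units, limma adjusted p = 0.00571). The PPARγ partner Rxra (-0.98), Klf5 (-0.64) and Ppara (-0.75) fell, and none of these 3 passed with the length trend removed. Cebpa, the late C/EBP factor of fat cells, was 187 ± 32.7 and 139.8 ± 12.7 and did not pass (limma adjusted p = 0.105).

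Of 22 genes of hormone signalling and other adipokines 2 rose and 3 fell (median -0.18; 0.14 without the length trend). Retnla, as above, and the retinol carrier Rbp4 (0.71) rose. The insulin receptor Insr (-0.53) and the peptide gene Apln (-0.69) fell, as did the matrix protein gene Ccdc80, which went from 197 ± 11.5 to 119 ± 6.21 (limma adjusted p = 0.0136). After removal of the length trend none of these 5 passed (limma adjusted p = 0.0606 to 0.787), 0 genes of the list were lower, and Adipor1 (0.54) and Pde3b (0.83) were higher. Of 10 genes of brown and beige fat 2 rose and 1 fell (median -0.10; -0.33 with scaling to total bases and 0.01 with quantile normalisation, 0.29 without the length trend). Cox8b (1.54) and Cox7a1 (1.63), short transcripts of respiratory subunits shared with muscle, rose, and Tbx1 fell by 1.44. Ucp1, the uncoupling protein that defines brown fat, had at most 0.421 in any library and did not pass the filter.

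Across these 7 lists, 119 genes other than the 10 were tested, of which 19 rose and 13 fell by the same test (15.97% and 10.9%), beside 12.7% and 17.9% of all genes. The 19 had a median principal transcript of 937 nt and the other 100 of 3330 nt. After removal of the length trend 16 were higher and 5 lower. With the replicate number as a block 26 of the 119 rose and 28 fell, beside 18.3% of all genes higher and 27.2% lower. Among the 28 were 9 genes of synthesis, 6 transcription factors, 5 of hormone signalling, 3 of the droplet and 3 of uptake. Of hormone signalling 4 rose. Counts depended on single libraries, as did those of all genes. Leaving out WT replicate 1 left 9 higher and 0 lower, with 197 and 230 of all genes. Leaving out WT replicate 2 gave 24 higher and 29 lower, with 2657 and 3359 of all genes. Leaving out WT replicate 3 gave 15 higher and 2 lower (all genes 607 and 746). Without HdR replicate 1 the counts were 16 and 8 (all genes 1037 and 1775), and without HdR replicate 2 they were 13 and 3 (773 and 1139).

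Markers of other cells that share these genes were read in the same libraries, and their part in the changes above was not tested. The marker counts here and below stand beside 12.7% of all genes tested higher and 17.9% lower. Without the length trend these shares were 10.2% and 7.93%. Macrophages can express Fabp4 and Lpl, and of 12 macrophage markers 7 rose and 0 fell (5 higher and 0 lower without the length trend). Their summed level was 791 to 1318 in WT and 1298 to 1905 in HdR, overlapping between genotypes. Of the defining genes, which both had coverage in every library, Adgre1 did not pass (0.28, limma adjusted p = 0.275) and Csf1r rose (0.53, limma adjusted p = 0.0482). Cd163 (1.43), Lyve1 (0.99) and Trem2 (1.20) had the smallest p. Of 13 skeletal muscle markers 7 rose and 0 fell (4 higher and 0 lower without the length trend), with sums of 3279.9 to 4513 and 6485 to 7744. With the replicate block 7 muscle markers were higher and 2 lower. Short muscle transcripts such as Pvalb (1.44), Tnni2 (1.28) and Mylpf (1.23) rose, while Acta1 (-0.16) and the long myosin genes Myh1 (-1.05) and Myh4 (-0.99) did not pass, and Ckm (1.04) rose.

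Endothelial cells also express Fabp4. Of 12 of their markers 0 rose and 4 fell (1 higher, Flt1, and 0 lower after removal of the length trend), with sums of 212 to 237 in WT and 195 to 225 in HdR, overlapping between genotypes. Pecam1 was 47.1 ± 5.89 and 27.6 ± 11.5 (limma adjusted p = 0.0646), and Cdh5 (-0.64), Tek (-0.79), Tie1 (-1.02) and Aplnr (-0.61) fell. Of 12 sebaceous markers 1 rose, Defb6 (2.24), and 4 fell, including Krt79 (-1.15) and Soat1 (-1.04) (1 higher and 4 lower without the length trend), with sums of 3643 to 3797 and 4303 to 5006. Within these sums Defb6, a beta-defensin gene, went from 282 ± 68.9 to 1346 ± 369. The defining genes Awat2 (-0.19) and Dgat2l6 (0.30) did not pass.

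Of 15 fibroblast and precursor markers 0 rose and 3 fell (0 higher and 3 lower after removal of the length trend), Col1a1 from 344 ± 58.2 to 93.8 ± 30.4 (limma adjusted p = 0.00503), Col1a2 (-0.94) and Dpp4, a marker of early precursors (-1.19, limma adjusted p = 0.00807). Their sums ran from 7164 to 10169 in WT and from 6836 to 9144 in HdR. Dcn, a matrix proteoglycan gene, lay higher in every HdR library (3659, 4419 and 4561 against 3145, 3625 and 2542 in WT) and did not pass (limma adjusted p = 0.187), but passed with the replicate block (limma adjusted p = 0.0322) and with the longest transcript's length removed (limma adjusted p = 0.0443). The first listed precursor genes Dlk1 (0.09) and Pdgfra (-0.16) did not pass. Of 14 ear cartilage markers 1 rose, Ucma (1.70), and 6 fell, among them Col11a1 (-1.03) and Matn4 (-0.97) (2 higher and 2 lower without the length trend), with sums of 209 to 427 and 220.1 to 249. Acan (-0.23) and Col2a1 (-0.71) did not pass. Of 11 keratinocyte markers 0 rose and 3 fell, Krt1 (-1.03), Krt14 (-0.71) and Dsc3 (-0.57) (1 higher and 1 lower without the length trend), and Krt5 did not pass (-0.40), with sums of 15016 to 17214 and 12057 to 13467. With each library left out in turn, 2 to 8 macrophage and 2 to 7 muscle markers rose. In the same fits 0 to 10 cartilage, 0 to 4 sebaceous, 0 to 3 endothelial and 0 to 2 keratinocyte markers fell. Each of these counts was at its lowest without WT replicate 1, as were those of all genes (197 higher and 230 lower). With the replicate block 6 precursor and 5 keratinocyte markers fell, and 1 and 0 rose, beside 27.2% of all genes lower and 18.3% higher.

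**Figure D5:**
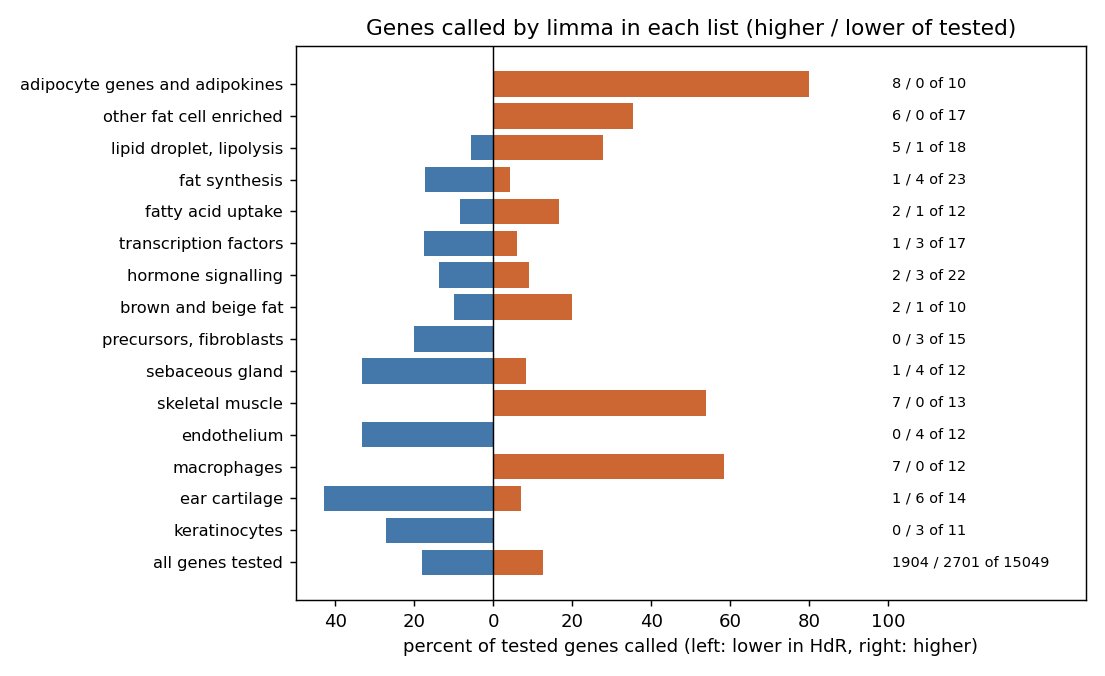
Percent of tested genes called by limma in each list, higher in HdR to the right (orange) and lower to the left (blue), with the counts beside each bar. The 10 adipocyte genes stand at 80% higher, all genes tested at 12.7%, and lists of skeletal muscle and macrophages at 53.8% and 58.3%.

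Genes with a profile most like the mean of the 10 over the 6 libraries were sought among 11658 other tested genes. Each of these had a mean of at least 5 bases per Mb. Genes with provisional names, such as Gm with digits or Rik, and pseudogenes named -ps were left out. By Pearson r on log2 levels the 10 most alike were Fam89a, Nop16, Ltc4s, Dhrs7c, Rrp9, Timm9, Mrap, Ghr, Bnip3 and Ppp1r1a, with r from 0.991 to 0.999. With 6 libraries in 2 genotypes this measure mainly reflects the difference between genotypes and even values within them, and is given as a description. Among them Mrap is of the fat cell list, Ghr encodes the growth hormone receptor and went from 43.9 ± 1.98 to 86.2 ± 8.94, and Ppp1r1a, a protein phosphatase inhibitor, went from 3.18 ± 0.363 to 18.8 ± 4.84. Bnip3, a mitophagy gene induced by hypoxia, went from 108 ± 6.93 to 238 ± 19.3.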

How the data were processed

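RNA-seq libraries of 3 WT and 3 HdR samples were made with an NEBNext Ultra II kit, per the labels' protocols. The authors deposited 1 table of coverage per gene symbol, whole numbers read here, from the values, as aligned bases summed over a gene: 1656 values equal 300, the length of a read pair, and 10.3% of low values are multiples of it, against 0.333% by chance. The build is GRCm38, per the submitters' processing notes, and the aligner and the counting, with its strand setting, were not stated in the labels or the file. These values are not read counts, so no count model was used. They were scaled by TMM (trimmed mean of M values) to bases per Mb, kept where at least 3 libraries had 1 or more, and tested as log2(value + 1) with limma 3.58.1 (robust trend) in R 4.3.3, adjusted by Benjamini-Hochberg over all 15049 genes tested. Length trends were removed per library with a natural spline (4 degrees of freedom) on transcript lengths of GENCODE M21. Ratios to Adipoq used exact permutation tests. Same-numbered libraries of the genotypes deviated together (r = 0.163, 0.416 and 0.366 over genes). Libraries of unlike number gave r from -0.377 to 0.159, the highest for WT replicate 1 with HdR replicate 3. In both genotypes replicate 2 had the lowest slope on length and replicate 3 the highest, and the part of this in r was not tested. The labels name no pairing, so the numbers were taken to pair libraries only in the block. The block is an alternative, beside scaling, filter, pseudocount, voom, length and left-out libraries. Removal of the principal transcript's length, alone, with the block and without HdR replicate 2, was added after seeing the data. The 10 genes and all lists were chosen with earlier results of these data known. Named beside them were, per list, up to 3 genes with the smallest p and the first 2 of each marker list, the 10 genes most like the mean profile, and Rbck1. Other genes were named after their values were seen. Tusc5, Ptrf and Flg were not matched. Promoters are RefSeq sequences on GRCm38.p6. The main fit was run on simulated data with independent noise per gene, without a length trend or replicate pairing. That run says nothing on how these bear on the calls.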

Additional observations from a re-analysis of the deposited data

How the results depend on the processing

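Of the 10 adipocyte genes, 7 or 8 were called higher under all 19 alternatives run (other scalings, filters and pseudocounts, voom, the replicate block, length removal, each library left out), and Fabp4, Adipoq, Retn, Thrsp, Lep and Cidec passed in each. Lpl lost its call in 6 of them and Cfd in 1, as given with those genes. Voom with sample weights called 1 of the 10 lower, Plin1 (-0.45, adjusted p = 0.0458). Pparg changed sign with quantile normalisation, to 0.00155. The median of the 10 became 1.14 with scaling to total bases, 1.20 with the longest transcript's length removed, with or without the block, and 1.15 with the principal length removed and without HdR replicate 2. Related fat cell genes called higher (19) and lower (13) became 12 and 24 with total bases and 31 and 31 with voom. They became 12 and 5 with the longest length removed, and 8 and 0 with the principal length removed without HdR replicate 2. Without a filter 15 were higher and 2 lower, with principal length removed 16 and 5, and with the replicate block 26 and 28. Leaving out each library gave 9 to 24 higher and 0 to 29 lower. All genes called higher (1904) became 917 with total bases, 1017 without a filter, 3408 with voom and 285 with the principal length removed without HdR replicate 2, and all called lower (2701) became 4305, 1127, 4647 and 327. All called lower were 4094 with the block, 1263 with the longest and 1181 with the principal length removed. With each library left out, 197 (without WT replicate 1) to 2657 (without WT replicate 2) were higher and 230 to 3359 lower. The share of calls that were higher was 41.3%, 17.6% with total bases, 52.5% with quantiles and 56.3% with principal length removed. With the replicate number as a block no call among the 10 changed. Against Plin1 in place of Adipoq the differences were 1.95 for Retn, 1.46 for Lep, 1.99 for Cfd, 0.0855 for Pparg, 1.54 for Cidec and 0.76 for Lpl. The ratios to Adipoq near 0 changed sign with a library left out, from -0.149 to 0.0148 for Retn and from -0.240 to 0.133 for Cfd. The cause of these shifts was not tested. Depth limits Thrsp most in WT, with at least 101 read pair equivalents, and Plin1 most in HdR, with at least 158.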
